A study of Mus musculus with 2 samples.

Results

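Foxp1, Foxp2, Foxp4, Rora, Bcl11a, Ebf1, Ebf2, Ebf3, Plcb3 and Plcb4 are 10 genes known for their place in Purkinje cells, of 32285 genes in each count matrix. They were taken by symbol, and each symbol matched 1 row. RNA of single nuclei of mouse cerebellum, taken at postnatal day 1, was sequenced, with 12 pooled cerebella in each of 2 libraries. The control library came from Cre-negative littermates, whose genotype is given as Tox3f/f in one label and as Tox3f/f or Tox3f/+ in another. The second library is labelled cKO (conditional knockout) and came from Nestin-cre;Tox3f/f mice, in which Cre is driven in neural progenitors and acts in their progeny, Purkinje cells included. Every animal but possibly some controls thus carried 2 floxed Tox3 alleles. With 1 library a group there is no replicate, so animals within a pool cannot be told apart and no test between groups was made. Intervals are 95% and cover counting error only.

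Purkinje cells are the inhibitory output neurons of the cerebellar cortex. They fall into molecular subtypes that are laid out in stripes, known best from zebrin II (Aldoc). Rora is an orphan nuclear receptor that Purkinje cells need to mature, and its loss underlies the staggerer mouse. Foxp1, Foxp2 and Foxp4 are forkhead repressors, and Bcl11a is a zinc finger factor that works with chromatin complexes. Ebf1, Ebf2 and Ebf3 are helix-loop-helix factors of the COE family, and Ebf2 is known for the zebrin-negative subtypes. Plcb3 and Plcb4 encode phospholipase C beta enzymes that act below the metabotropic glutamate receptor mGluR1, and in the adult they mark zebrin-positive and zebrin-negative Purkinje cells, respectively.

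The matrices held 4857 control barcodes and 6946 barcodes labelled cKO, with 22325208 and 33726533 unique molecular identifiers (UMIs) and medians of 4072 and 4161.5 UMIs per barcode. After filters 4667 and 6555 nuclei were kept, and 9 barcodes were shared by the libraries. Tox3 had 2127 and 3571 UMIs in them, a ratio of 1.14 (1.08 to 1.2), and the ratio was 1.07 (0.945 to 1.22) in Purkinje cell-like nuclei. It was higher in the library labelled cKO in GNP-like nuclei (2.22, 1.89 to 2.59) and GN-like nuclei (1.89, 1.56 to 2.30). These counts alone thus did not show the deletion. The paper reports a near-complete loss of Tox3 by quantitative RT-PCR in mutant cerebella of the same age. Which exons were deleted was not given in the sources used here, and tags from the remaining message would still be counted. A total of 1011 nuclei, 292 control and 719 labelled cKO, were Purkinje cell-like by markers that left the 10 genes out. Calb1 stood at 492 and 663 UMIs per 1000000 UMIs (CPM) there and at 43.8 or less in the other 8 named classes, and Skor2 at 183 and 191 CPM against 4.78 or less. Lhx5 and Rgs8 did not follow the label. Lhx5 was higher in GABAergic interneuron-like nuclei (72.7 and 77.1 CPM against 21.7 and 20.8), and Rgs8 was higher in glutamatergic cerebellar nuclei (CN)-like nuclei (23.9 and 30.04 CPM against 17.0 and 20.1). In the control library 21.7% of kept nuclei, and in the library labelled cKO 10.7%, lay in clusters of low depth that entered no class.

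The members differ in size and place. On the GRCm38 build, Rora spans 734 kb on the plus strand (chr9:68653786-69388246), Foxp1 597 kb on the minus strand (chr6:98925338-99522721) and Foxp2 541 kb on the plus strand (chr6:14901349-15441977). The Ebf genes lie on different chromosomes (Ebf1 chr11:44617317-45008091, Ebf2 chr14:67233292-67430918, Ebf3 chr7:137193673-137314445). Bcl11a lies on the same chromosome as Ebf1 (chr11:24078056-24174123) and Foxp4 at chr17:47867133-47924645. Plcb4 spans 356 kb (chr2:135659011-136014593) and Plcb3 24.1 kb (chr19:6952325-6976470).

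RefSeq start sites were found for 8 of the 10 members, which left out Foxp2 and Ebf2. The 250 bases before 12 starts were searched on both strands for AGGTCA, the half-site of ROR receptors, TGTTTAC for forkhead factors, the EBF palindrome, and TGACCA for BCL11A. These words do not contain one another. Of 32851 RefSeq windows of this length, 14% held the first, 3.17% the second, 0.779% the EBF palindrome and 11.4% the last. In the members' windows 1 match was found, a ROR half-site read on the opposite strand, 246 bases before the Plcb3 start. A match is a description of letters and not a bound site. The windows below belong to Rora, which differed most between the libraries in Purkinje cell-like nuclei, and to the pair of Plcb genes. The Rora window (chr9:68653536-68653785, plus strand) lies between annotated genes. The Plcb3 window (chr19:6969815-6970064, minus strand) and the window of the second Plcb4 start (chr2:135764588-135764837, plus strand) lie in introns of longer transcripts of the same gene. Capitals mark the ROR half-site, and all are written 5′ to 3′ on the gene's strand.
Rora: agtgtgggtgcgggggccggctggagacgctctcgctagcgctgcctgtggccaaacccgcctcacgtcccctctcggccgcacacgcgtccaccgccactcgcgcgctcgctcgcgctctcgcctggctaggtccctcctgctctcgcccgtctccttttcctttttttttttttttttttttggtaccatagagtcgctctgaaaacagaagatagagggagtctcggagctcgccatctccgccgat
Plcb3: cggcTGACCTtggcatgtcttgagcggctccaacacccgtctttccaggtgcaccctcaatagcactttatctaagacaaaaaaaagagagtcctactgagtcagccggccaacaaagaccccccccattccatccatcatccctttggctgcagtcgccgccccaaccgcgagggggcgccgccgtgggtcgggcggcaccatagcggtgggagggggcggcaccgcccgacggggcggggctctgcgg
Plcb4, second start: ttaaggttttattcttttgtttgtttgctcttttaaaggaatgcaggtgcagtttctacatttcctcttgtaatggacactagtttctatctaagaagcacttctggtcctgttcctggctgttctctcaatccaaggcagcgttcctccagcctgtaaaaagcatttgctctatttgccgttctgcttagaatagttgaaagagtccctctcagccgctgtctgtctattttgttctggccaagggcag

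Across the 9 named classes with at least 50 nuclei in each library, 7 of the 10 members had their highest level in Purkinje cell-like nuclei in both libraries. The exceptions were Foxp1, Ebf3 and Plcb3. Among all 19227 genes with enough UMIs, 5.12% had their highest level in Purkinje cell-like nuclei in both libraries. The members were chosen as genes known in Purkinje cells, with earlier results of these data known. A higher share among them was thus largely set by that choice, and enrichment was not tested. Unnamed clusters were not among the classes. Besides those of low depth, they included clusters with too few markers (11.4% and 12.0% of kept nuclei). Clusters with leading genes of another class held 10.8% and 12.2%. Levels below are given for 1 gene across classes and not between genes.

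Foxp2 stood at 2908 CPM in control Purkinje cell-like nuclei and at 3019 CPM in those labelled cKO. The next class was at 313 CPM in control (glutamatergic CN-like) and at 387 CPM in the library labelled cKO (GABAergic interneuron-like), 9.30-fold and 7.81-fold lower. Foxp2 was lowest in microglia-like nuclei, at 28.8 and 34.6 CPM. Foxp4 showed the same order at the top, with 268 and 263 CPM in Purkinje cell-like nuclei and 54.1 and 43.8 CPM in the next class, the granule neuron progenitor (GNP)-like nuclei. Below GNP-like nuclei, the Foxp4 intervals of neighbouring classes overlapped in both libraries. Foxp1 ran differently. It was highest in granule neuron (GN)-like nuclei in control (586 CPM) and in microglia-like nuclei in the library labelled cKO (650 CPM), and the intervals of these classes overlapped in both libraries. Purkinje cell-like nuclei were at 266 and 274 CPM of Foxp1, within counting error of glutamatergic CN-like nuclei (259 and 277 CPM).

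Rora was highest in Purkinje cell-like nuclei, at 7229 CPM in control and at 4391 CPM in the library labelled cKO. GABAergic interneuron-like nuclei came next (2108 and 1946 CPM), then Bergmann glia-like (1652 and 1768 CPM) and oligodendrocyte lineage-like nuclei (1451 and 1323 CPM). Microglia-like nuclei were lowest, at 109 and 106 CPM. The first 4 classes kept this order in both libraries, and only the control intervals of Bergmann glia-like and oligodendrocyte lineage-like nuclei overlapped among them. Bcl11a stood at 735 and 798 CPM in Purkinje cell-like nuclei. It was 4.48-fold and 4.50-fold lower in the next class, which was GNP-like in control (164 CPM) and glutamatergic CN-like in the library labelled cKO (177 CPM).

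Ebf1 was at 6095 and 6438 CPM in Purkinje cell-like nuclei. The next named class was GN-like in control (995 CPM) and GNP-like in the library labelled cKO (2098 CPM), so the distance to it was 6.13-fold and 3.07-fold. Unnamed cluster 2 (397 and 488 nuclei), outside the classes compared, stood at 1805.5 and 1260 CPM. In control this lay above GN-like nuclei. Ebf2 stood at 773 and 914 CPM in Purkinje cell-like nuclei and at 331 and 397 CPM in glutamatergic CN-like nuclei, and the other 7 classes were at 145 CPM or less. Ebf3 was highest in GNP-like nuclei, at 838 and 708 CPM. Purkinje cell-like nuclei were at 620 and 598 CPM of Ebf3, and GN-like nuclei at 638 and 399 CPM. In control the Purkinje cell-like and GN-like intervals overlapped, and in the library labelled cKO they did not.

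Plcb4 was at 1055 and 1249 CPM in Purkinje cell-like nuclei and at 585 and 695 CPM in Bergmann glia-like nuclei, the next class. Glutamatergic CN-like nuclei followed, at 299 and 331 CPM, and microglia-like nuclei were lowest, at 34.5 and 64.6 CPM. Plcb3 was near the floor everywhere, with 33 and 49 UMIs in Purkinje cell-like nuclei (11.2 and 8.14 CPM), and neighbouring classes overlapped at every step in both libraries. With each nucleus thinned to 1000 UMIs, 0 of 292 control Purkinje cell-like nuclei held a Plcb3 UMI, and 6 of 719 nuclei labelled cKO did (0.834%). The count of 0 allows a share of nuclei with a UMI of up to 1.03% at a floor of 3 counts and up to 1.26% by the exact binomial interval. In microglia-like nuclei 0 of 52 and 4 of 151 held one (2.65% in the latter). Without thinning the Purkinje shares were 11.0% and 6.4%, where nuclei held 9282.5 and 7956 UMIs in the median. The microglia shares were 5.56% and 6.62%, with medians of 2917.5 and 2546 UMIs. Plcb3 was thus not detectable above background in Purkinje cell-like nuclei at this depth.

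**Figure D1:**
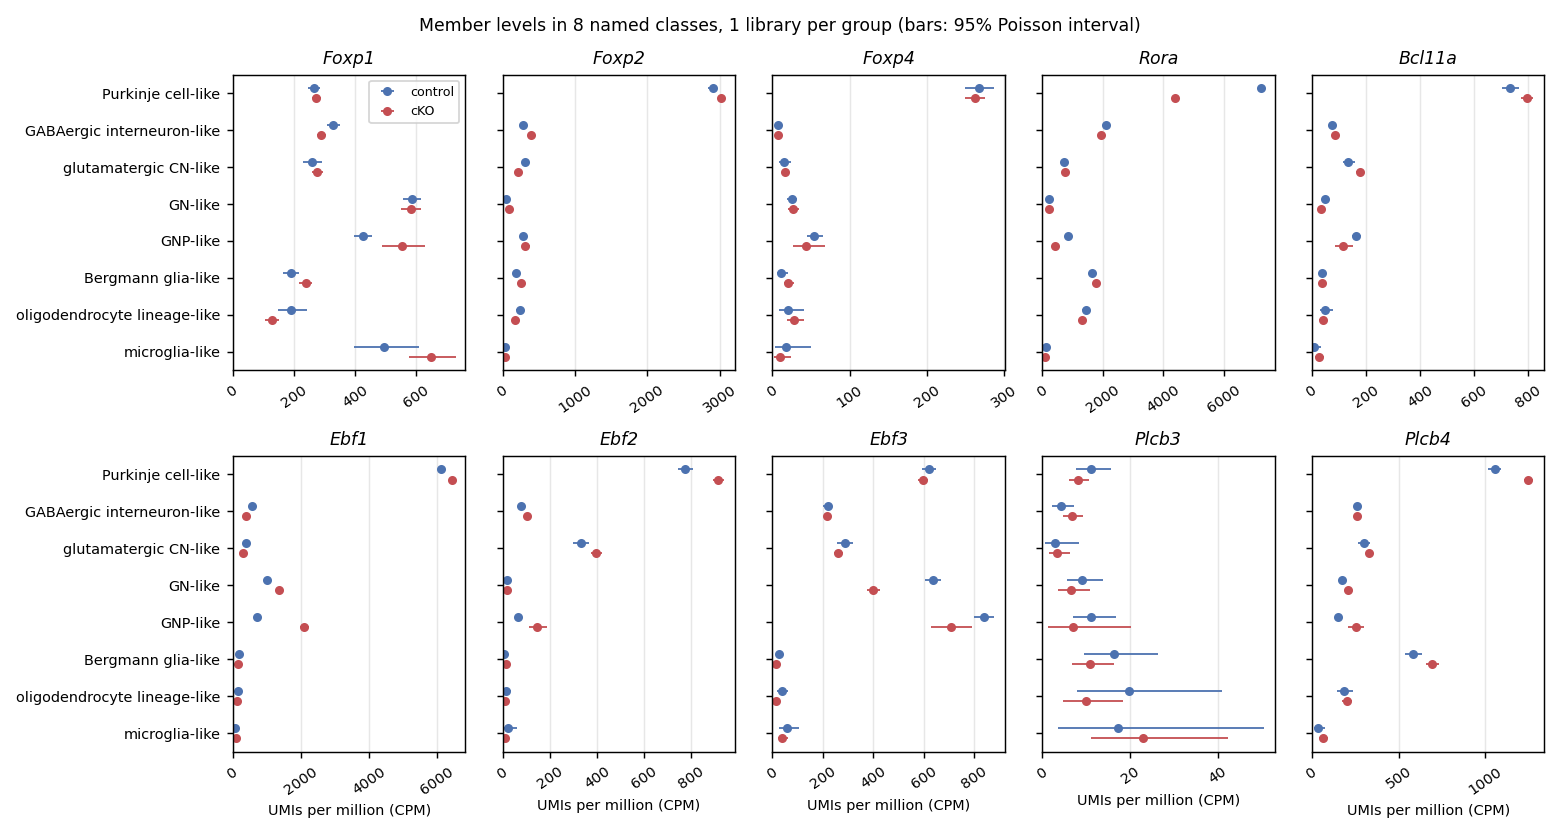
Levels of the 10 members in 8 of the 9 named classes, where the x axes give UMIs per 1000000 UMIs (CPM) from 0 on a scale of their own for each gene, blue is the control library, red is the library labelled cKO, points are summed levels and bars are 95% Poisson intervals. Purkinje cell-like nuclei stand highest in both libraries for 7 members, and for Rora the points lie at 7229 and 4391 CPM.

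Within Purkinje cell-like nuclei, Rora was the only member past 1.5-fold between the libraries by summed level. It stood at 7229 CPM (21276 UMIs) in control and was lower, at 4391 CPM (26421 UMIs) in the library labelled cKO (ratio 0.607, 0.596 to 0.618). Of all 14678 genes with at least 20 UMIs in this class, 12.5% passed this fold in either direction (7.62% lower and 4.89% higher), so 1 of 10 members is no more than the background. The median log2 ratio was 0.05 over the members and -0.03 over all these genes. Counted per nucleus, the median Rora level lay at 5563 CPM in control and at 3072 CPM in the library labelled cKO. The 10th to 90th percentile ran from 1271 to 14908 CPM in control and from 1099 to 9311 CPM in the other library, so single nuclei overlapped widely. The ratio was 0.584 in cluster 6 and 0.773 in cluster 9, the pair of clusters that made up the class, and only the former passed the fold. Cluster 9 was led by 4930438E09Rik and Cdh9 and cluster 6 by Car8 and Arhgef33. Fewer nuclei with high Rora and less Rora per nucleus cannot be told apart by the summed level.

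The other members lay within 1.5-fold. Ebf2 stood at 773 and 914 CPM (ratio 1.18, 1.13 to 1.24) and Plcb4 at 1055 and 1249 CPM (1.18, 1.14 to 1.23). The ratio was 1.09 for Bcl11a, 1.06 for Ebf1, 1.04 for Foxp2, 1.03 for Foxp1, 0.981 for Foxp4 and 0.964 for Ebf3. The Foxp1, Foxp4 and Ebf3 intervals held 1. Plcb3 had a ratio of 0.726 on few UMIs, with an interval of 0.458 to 1.17. As medians over nuclei Ebf2 went from 296 to 519 CPM and Plcb4 from 639 to 968 CPM. These ratios, 1.75 and 1.52, were past the fold that the summed levels did not pass. The share of all genes past the fold by medians is not given here. The 25th percentile of Ebf2 was 0 CPM in both libraries.

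Gm15511, a noncoding RNA annotated within Rora on the opposite strand, went the other way. It had 870 control UMIs and 2124 UMIs in the library labelled cKO in Purkinje cell-like nuclei, or 296 and 353 CPM (ratio 1.19, 1.10 to 1.29). It was highest in this class too, with 36.0 CPM or less in each of the other 8. Whether reads were assigned by strand is not given in the sources used here. Rora is a long gene with many introns, and genes of its size were looked at beside it. Of 232 genes that span at least 500 kb, 26 were lower past 1.5-fold (11.2%), against 7.62% of all genes, and 21 had a ratio at or below that of Rora. Of the 177 of these with at least 1000 UMIs in the class, 8 were lower (4.52%), and Rora was among the 7 with the lowest ratios. The median log2 ratio was -0.02 over the 232 and 0.03 over the 177, and the part of gene length in the Rora result was not tested.

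Other cell types' markers were seen in the same nuclei. The summed level of the 9 GN markers stood at 2427 CPM in control and at 1872 CPM in the library labelled cKO, with 6 of 9 lower past the fold and none at 0. The 8 GNP markers summed to 125 and 64.5 CPM, with 5 lower and 1 at 0 in the library labelled cKO. The 8 Purkinje markers summed to 4694 and 5768 CPM, and none passed the fold. Rora itself was at 238 and 235 CPM in GN-like nuclei and at 862 and 427 CPM in GNP-like nuclei, both below its Purkinje level of the same library. The part of the marker differences in the Rora result was not tested.

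**Figure D2:**
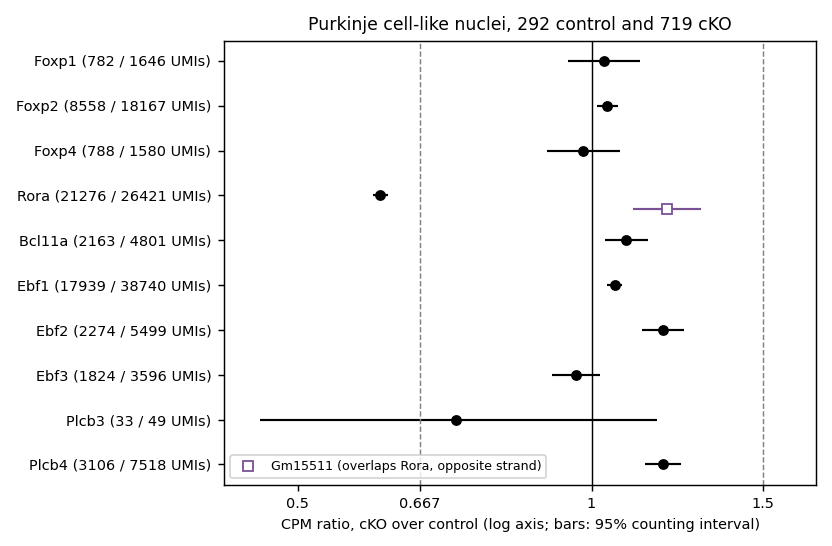
CPM ratio of the library labelled cKO over control for each member in Purkinje cell-like nuclei, where the x axis is logarithmic, black points are ratios, bars are 95% counting intervals, dashed lines mark 1.5-fold in each direction and the open square is Gm15511. Rora lies at 0.607, the other members between 0.726 and 1.18, and Gm15511 at 1.19.

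Genes of the same families and pathway gave the setting. Of 7 paralogs of the members, 5 had enough UMIs and none passed 1.5-fold. Plcb1, another phospholipase C beta gene, stood at 6361 and 7777 CPM, and Rorb, the paralog of Rora, at 87.0 and 64.6 CPM (ratio 0.743, 0.633 to 0.874). Of 12 genes from mGluR1 to calcium release, none passed the fold and the median log2 ratio was 0.21. Car8, which binds the inositol trisphosphate receptor, went from 1784 to 2350 CPM, and Itpr1, that receptor, from 1969 to 2245 CPM. Of 6 genes known to depend on Rora in Purkinje cells, 1 passed the fold. Shh, the mitogen that Purkinje cells release to granule neuron progenitors, was at 14.95 CPM (44 UMIs) in control and 7.81 CPM (47 UMIs) in the library labelled cKO (ratio 0.522, 0.339 to 0.807). The other 5 of that list, Pcp2, Pcp4, Itpr1, Slc1a6 and Calb1, had ratios from 1.01 to 1.35. Of 13 genes known for perinatal Purkinje compartments, 11 had enough UMIs and 1 passed the fold. That was En1, with 13 UMIs in each library and a ratio of 0.489 (0.209 to 1.15). These shares were below the 12.5% of all genes, apart from 1 of 6.

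Clustered again without the members among the features, the Purkinje cell-like nuclei gave 10 subclusters of 11 to 46 control nuclei and 25 to 134 nuclei labelled cKO. RNAs that overlap the members, such as 4930438E09Rik opposite Ebf2, were not kept out, so the subclusters are not blind to the members. Subclusters are named here by number and leading genes. Ebf2 and Plcb4 had the widest spans of the members over them, Plcb3 with its few UMIs left aside.

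Ebf2 was highest in subcluster 0, led by Cdh9 and Sema3a, at 2155 CPM in control and at 2130 CPM in the library labelled cKO. It was lowest in subcluster 3, led by Gpr176 and Pcdh10, at 91.3 and 96.2 CPM. The span was 23.6-fold and 22.1-fold. Plcb4 was also highest in subcluster 0, at 2370 and 2189 CPM. Its lowest levels were 86.8 CPM in subcluster 9 of control (12 UMIs) and 155 CPM in subcluster 2 of the library labelled cKO, a span of 27.3-fold and 14.1-fold. Both genes were high in subclusters 0, 1 and 4 and low in subclusters 2, 3 and 5, in both libraries. They parted in subcluster 6, led by Kirrel and Robo1, where Ebf2 was at 252 and 115 CPM and Plcb4 at 1080 and 998 CPM. Ebf3, at 915 and 881 CPM in subcluster 0, and at 907 and 814 CPM in subcluster 1, was lowest in subcluster 2, led by Tnr and Gpc3 (199 and 239 CPM).

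Bcl11a ran the other way over the subclusters. It was highest in subcluster 3 (1134 and 1179 CPM) and lowest in subcluster 1, led by Sulf1 and Cdh8 (391 and 433 CPM). Across the 10 subclusters, on a log2 scale, the correlation of Bcl11a with Ebf2 was -0.87 (control) and -0.83 (labelled cKO), and that of Rora with Plcb4 was -0.83 and -0.79. Ebf2 and Plcb4 correlated at 0.75 and 0.60. These describe 10 points that share 1 library, and both libraries shared the clustering.

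The forkhead genes each had a pattern of their own. Foxp1 peaked in subcluster 6, at 864 and 1029 CPM, followed by subcluster 4, led by Zfhx4 and Cntn4, at 525 and 632 CPM. The other 8 subclusters were at 317 CPM or less. Foxp4 was highest in subcluster 4 (440 and 457 CPM) and lowest in subcluster 1 (84.5 and 64.4 CPM), 5.21-fold and 7.09-fold apart. Foxp2 varied least of the forkhead genes, from 3779 and 4248 CPM in subcluster 1 to 1501 and 1782 CPM in subcluster 2. Subcluster 2 was also lowest for Ebf1 (2982 and 3404 CPM), which was highest in subcluster 0 in control (9444 CPM) and subcluster 5 in the library labelled cKO (9294 CPM). Subcluster 1 thus had the highest Foxp2 and the lowest Foxp4 and Bcl11a in both libraries.

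**Figure D3:**
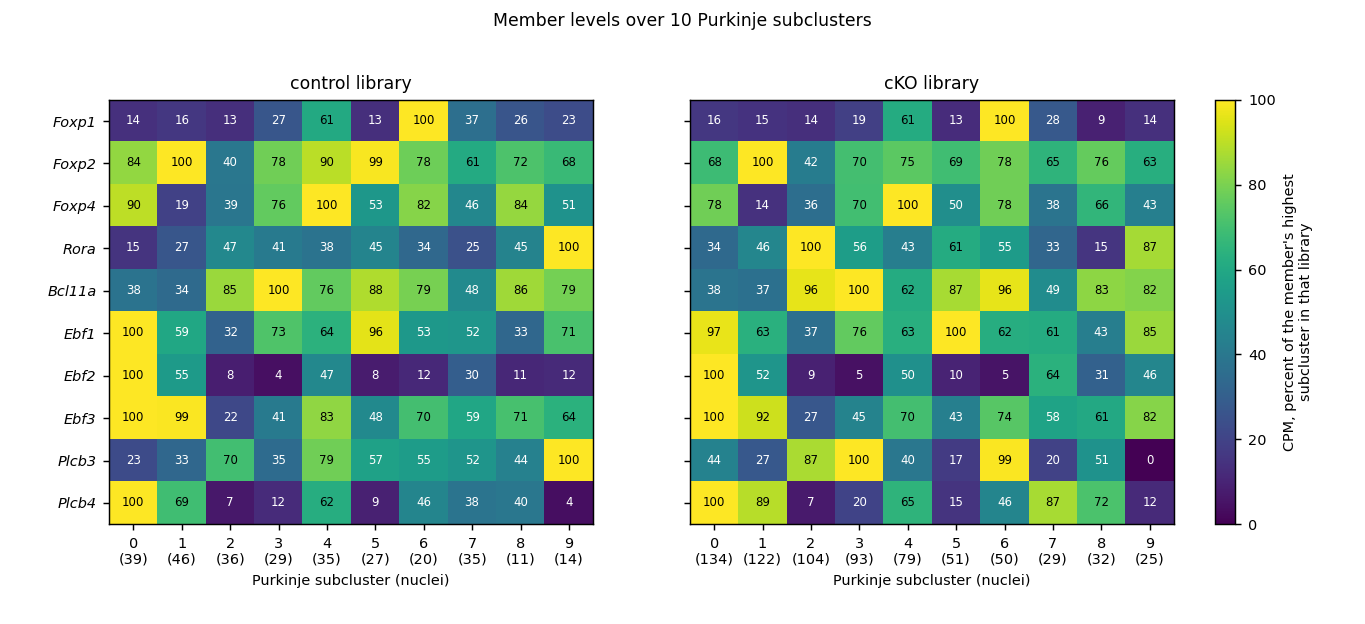
Levels of the members over the 10 Purkinje subclusters, control at left and the library labelled cKO at right, where each cell gives the CPM as a percentage of the member's highest subcluster in that library, and numbers of nuclei stand under each subcluster. Ebf2 and Plcb4 peak in subcluster 0, Foxp1 in subcluster 6 and Bcl11a in subcluster 3 in both libraries, whereas Rora peaks in subcluster 9 at left and subcluster 2 at right.

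The patterns over subclusters were alike in the libraries for most members. The correlation between libraries over the 10 subclusters was 0.99 for Foxp4, 0.98 for Ebf1, 0.96 for Bcl11a, 0.95 for Ebf3, 0.94 for Plcb4, 0.88 for Foxp1, 0.86 for Foxp2 and 0.84 for Ebf2. Ebf2 and Plcb4 parted between the libraries mainly in subclusters 7, 8 and 9. In subcluster 7 Ebf2 was at 645 and 1364 CPM (ratio 2.12, 1.84 to 2.44). Plcb4 was at 911 and 1904 CPM there (2.09, 1.85 to 2.36). In subcluster 8 Ebf2 was at 238 and 664 CPM and Plcb4 at 942 and 1572 CPM, and in subcluster 9 Ebf2 was at 260 and 978 CPM and Plcb4 at 86.8 and 264 CPM. Both genes were thus higher in the library labelled cKO in each of these 3, which held 35, 11 and 14 control nuclei, and lay within 1.5-fold of control in subclusters 0, 1, 2 and 4. Ebf2 went the other way in subcluster 6 (ratio 0.457, 0.294 to 0.711). Plcb4 was just past the fold in subclusters 3 (293 and 444 CPM) and 5 (216 and 327 CPM), where Ebf2 was within it. The correlation was 0.45 for Rora, and -0.36 for Plcb3, which had 12 UMIs or fewer in any subcluster and library. Rora was highest in subcluster 9 of control, at 20245 CPM in 14 nuclei, and stood there at 7133 CPM in 25 nuclei of the library labelled cKO. In subcluster 2 it was at 9470 and 8227 CPM. In subcluster 0, where Ebf2 and Plcb4 were highest, Rora was at 3065 and 2811 CPM.

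The Rora ratio was 0.917 in subcluster 0 and 0.869 in subcluster 2. In the other 8 it ran from 0.139 in subcluster 8, led by Arhgap24 and Pcsk2 (9063 CPM in 11 control nuclei and 1259 CPM in 32 nuclei labelled cKO), to 0.691 in subcluster 1. All 10 ratios were below 1. Leaving out any one subcluster gave a class ratio between 0.534 (without subcluster 2) and 0.654 (without subcluster 9), past the fold in each case. With the subclusters of the library labelled cKO weighted as in control, the ratio was 0.582. Subcluster 7, led by E130114P18Rik, Erbb4, 8030451A03Rik, Nfia and Reln, held 12.0% of control and 4.03% of cKO-labelled Purkinje cell-like nuclei, at medians of 14983 and 10585 UMIs. Reln was also among the leading genes of the GN-like clusters, 8030451A03Rik of the Bergmann glia-like cluster and E130114P18Rik of the GNP-like clusters. Without subcluster 7 the Rora ratio was 0.582, that of Ebf2 was 1.11 and that of Plcb4 was 1.11.

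**Figure D4:**
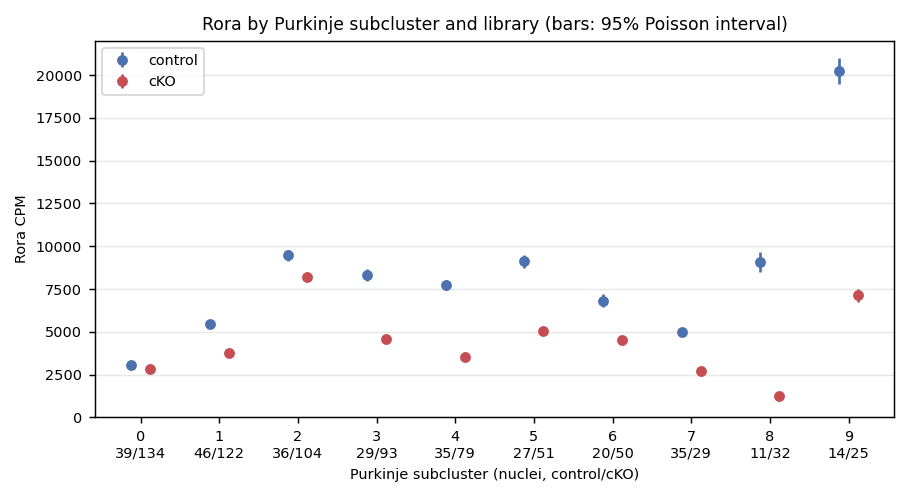
Rora level (CPM, from 0) in each Purkinje subcluster, where blue is control, red is the library labelled cKO, bars are 95% Poisson intervals and the numbers of nuclei stand under each subcluster. The red point lies below the blue one in all 10, from 2811 against 3065 CPM in subcluster 0 to 7133 against 20245 CPM in subcluster 9.

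Nuclei were also split by Ebf2 itself, with no clusters of subtypes. Each Purkinje cell-like nucleus was thinned to 2000 UMIs. An Ebf2 UMI was then seen in 143 control nuclei and not in 149, and seen in 382 nuclei labelled cKO and not in 334. Plcb4 UMIs were seen in 81.8% of control nuclei with Ebf2 (74.5 to 87.8%) and in 39.6% without (31.7 to 47.9%). In the library labelled cKO the shares were 84.6% and 44.3%. Ebf3 was seen in 69.2% of control nuclei with Ebf2 and in 52.3% without, and in 72.5% and 53.6% of nuclei labelled cKO.

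Bcl11a went the opposite way, seen in 58.7% of control nuclei with Ebf2 and in 79.9% without, and in 63.9% and 78.1% in the library labelled cKO. Rora was at 4748 CPM in control nuclei with Ebf2 and at 9923 CPM in those without. In the library labelled cKO it was at 3560 and 5502 CPM. Rora was thus lower beside Ebf2 in both libraries, and the ratio of nuclei with Ebf2 to those without was 0.479 in control and 0.647 in the other. For Foxp1, Foxp2, Foxp4, Rora, Ebf1 and Plcb3 the intervals of the shares overlapped in each library. Foxp1 CPM was lower beside Ebf2, as Rora CPM was, at 210 against 315 CPM in control (ratio 0.665) and 203 against 316 CPM in nuclei labelled cKO (0.642). Microglia-like nuclei at the same depth gave the background. There 6.52% and 11.0% held a Plcb4 UMI, 2.17% and 5.93% a Bcl11a UMI and 4.35% and 5.08% an Ebf3 UMI, all under the Purkinje shares.

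**Figure D5:**
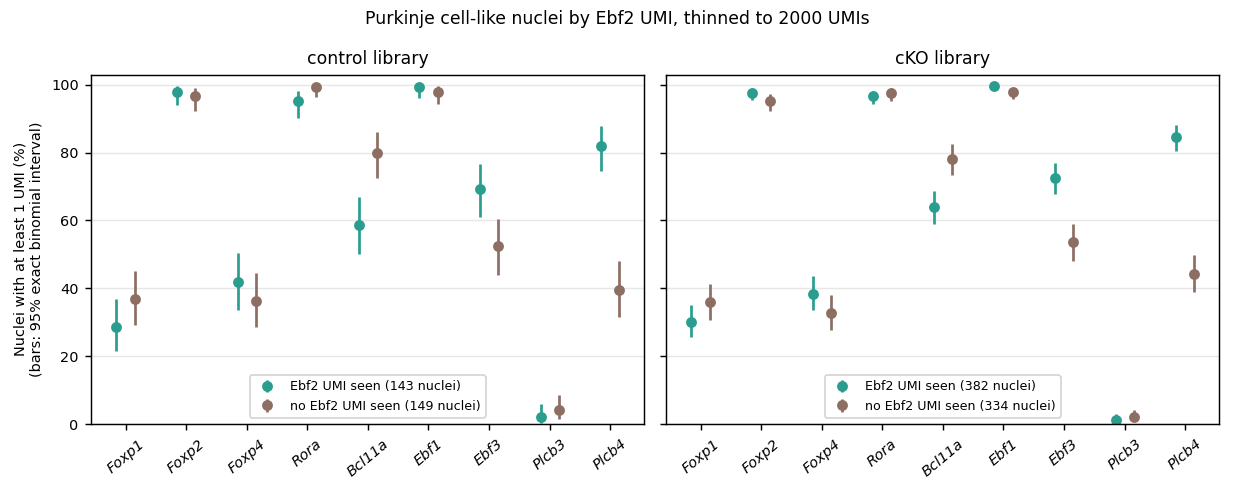
Share of Purkinje cell-like nuclei with at least 1 UMI of each member, split by whether an Ebf2 UMI was seen, at 2000 UMIs a nucleus, where the y axis is percent from 0, green points are nuclei with Ebf2, brown points are nuclei without, and bars are exact 95% binomial intervals. Plcb4 (81.8% against 39.6% in control) and Ebf3 stand higher with Ebf2, and Bcl11a (58.7% against 79.9%) stands lower, in both libraries.

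Outside Purkinje cell-like nuclei, GNP-like nuclei had the most members past 1.5-fold of the classes reported. They also had the largest share of all genes past it. Control had 514 GNP-like nuclei and the library labelled cKO 119. There 3 members were higher and 2 lower, where 32.5% of 11165 genes passed (11.2% higher and 21.2% lower). Ebf1 stood at 704 CPM (1446 UMIs) in control and at 2098 CPM (910 UMIs) in the library labelled cKO (ratio 2.98, 2.74 to 3.24). Its ratio was 2.95 in cluster 14, led by Gli2, Knl1 and Top2a, and 2.89 in cluster 18, led by Gli2 and Gm12082. Ebf2 went from 62.8 to 145 CPM (2.31, 1.68 to 3.15) and Plcb4 from 152 to 251 CPM (1.65, 1.32 to 2.06). The Plcb4 ratio was 1.38 in cluster 14, short of the fold, and 2.30 in cluster 18. Rora went from 862 to 427 CPM (0.495, 0.423 to 0.576). At a clustering resolution of 0.4, where the class held 521 and 132 nuclei, the Rora ratio was 0.958 and no longer past the fold. Plcb3 had 23 and 3 UMIs, with an interval of 0.119 to 2.04. The 9 GN markers summed to 4462 and 6411 CPM in this class and the 8 GNP markers to 2164 and 2266 CPM, with 3 and 0 higher past the fold, and their part in the member differences was not tested.

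In GN-like nuclei 2 members passed the fold, where 15.4% of 12189 genes did (6.97% higher and 8.39% lower). Foxp2 went from 38.4 CPM (93 UMIs) to 85.7 CPM (194 UMIs), a ratio of 2.23 (1.73 to 2.89), with 2.17 in cluster 4 and 2.44 in cluster 8. Both levels were below that of Purkinje cell-like nuclei. The control interval overlapped that of microglia-like nuclei, the lowest class (28.8 CPM). The 8 Purkinje markers summed to 185 and 227 CPM in GN-like nuclei, with 3 higher and 1 lower past the fold. UMIs were not corrected for free RNA, and the part of such RNA in the Foxp2 difference was not tested. Ebf3 went from 638 to 399 CPM (0.626, 0.576 to 0.679). Its ratio was 0.474 in cluster 4, led by Cadps2 and Reln, and 0.837 in cluster 8, led by 4930407I19Rik and Gm43948, so only cluster 4 passed the fold.

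In the other classes reported, the calls rested on few UMIs. Among Bergmann glia-like nuclei 4 members passed, Ebf2 and Foxp4 higher and Ebf3 and Plcb3 lower, none with more than 43 UMIs in either library, where 16.5% of genes passed (9.33% higher and 7.18% lower). Ebf3 was lower in oligodendrocyte lineage-like nuclei (13 UMIs in each library, ratio 0.354, 0.151 to 0.829), where 25.9% of genes passed (14.4% higher and 11.5% lower). Plcb3 was past the fold in GABAergic interneuron-like nuclei (12 and 39 UMIs, ratio 1.60), where 10.6% of genes passed (5.23% higher and 5.33% lower). Plcb4 was past it in microglia-like nuclei (6 and 28 UMIs, ratio 1.87), where 26% of genes passed (14.3% higher and 11.7% lower), and both intervals held 1. In glutamatergic CN-like nuclei no member passed the fold, where 17.8% of genes did (9.56% higher and 8.24% lower).

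Over all kept nuclei, Ebf2 was the only member past 1.5-fold, where 14.8% of 20214 genes passed (7.07% higher and 7.74% lower). It was at 153 and 251 CPM, a ratio of 1.64 (1.57 to 1.71). Rora, which was lower within Purkinje cell-like nuclei, was at 1795 and 1750 CPM over all nuclei (0.975, 0.962 to 0.988). Purkinje cell-like nuclei were 6.26% of kept control nuclei and 11.0% of those labelled cKO. Foxp2 (552 and 768 CPM), Plcb4 (413 and 572 CPM) and Bcl11a (161 and 211 CPM) were higher over all nuclei by 1.39-fold, 1.38-fold and 1.31-fold, and within Purkinje cell-like nuclei by 1.04-fold, 1.18-fold and 1.09-fold. Ebf3 was lower over all nuclei (353 and 263 CPM, 0.746), and GNP-like nuclei, its highest class, were 11.0% and 1.82% of kept nuclei. Within units its ratio was 0.844 in GNP-like nuclei, 0.626 in GN-like nuclei and 0.379 in unnamed cluster 0. The part of cell makeup in these differences over all nuclei was not tested.

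The 3 genes most like each member were sought over the 9 classes in each library, 18 points in all, by Pearson's r of log2(CPM + 5). The points share libraries and depth, and r is a description. For 5 members the most alike gene was a noncoding RNA that overlaps it on the opposite strand. These were Gm12064 for Bcl11a (r = 0.94), Gm12158 for Ebf1 (0.99), 4930438E09Rik for Ebf2 (0.99), Gm10578 for Ebf3 (0.97) and Gm14211 for Plcb4 (0.96). For Ebf2 the second and the third, 1700120O09Rik and Gm6878, overlap it as well. Reads of such pairs cannot be told apart where strand was not used. In Purkinje cell-like nuclei the first RNA of each of these 5 had a ratio from 1.03 (Gm10578) to 1.24 (4930438E09Rik), within 1.5-fold as its partner was.

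The other alike genes lie elsewhere. Rora was most like Ano4 (0.93), a membrane scramblase gene, Drp2 (0.91) and Adamtsl1 (0.89). Among the genes most like Foxp2 were Dab1 (0.89), an adaptor of reelin signalling, and Foxo6 (0.89). Foxp1 was most like Bid, Gng2 and Itga4 (0.90 to 0.88) and Foxp4 most like Abtb1, Slitrk5 and Gm28653 (0.88 to 0.86). After its antisense RNA, Bcl11a was most like Gpr26 and Mei4, Ebf1 most like Podxl2 and Crmp1, and Plcb4 most like Fat4 and A330093E20Rik, with r from 0.91 to 0.94. Among those of Ebf3 was 4933413L06Rik (0.92). Plcb3, with few UMIs, was most like Tex261, Arhgap31 and Galk1 (0.89 each).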

How the data were processed

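Nuclei of P1 cerebellum were captured with a 10x Genomics kit, 1 library per group and 12 pooled cerebella per library. The deposited matrices hold raw UMI counts per gene and nucleus, in whole numbers, made by the authors with Cell Ranger 7.0.1 on mm10, per the submitters' processing notes. UMIs were not corrected for free RNA. Total depth was 22325208 and 33726533 UMIs, and intervals cover counting error only. Barcodes over 25% mitochondrial UMIs and the top Scrublet scores (0.8% per 1000 barcodes, scanpy 1.11.5) were left out. Nuclei were integrated by canonical correlation in Seurat 5.3.0 without the 10 members (3000 variable features per library, 30 integration dimensions). Clustering used 20 dimensions and resolution 0.8. Clusters were named from marker lists, as "X-like", where at least 3 markers stood at 2-fold. The mean log2 fold of the list had to be at least 1. Low depth, or leading genes that held no marker or pointed to another class, could leave a cluster unnamed. These rules were set after clusters had been seen in an earlier analysis. Purkinje cell-like nuclei were clustered again at resolution 0.4.

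Levels are summed UMIs per 1000000 UMIs (CPM) with exact Poisson intervals. Results of 1 of the 9 classes, and some single genes, are not reported here. Ratios have conditional binomial intervals. A gene counted as past the fold at 1.5-fold with at least 20 UMIs over both libraries, a rule of size and not a test. With 1 library per group no test was made. The ratios and intervals were tested on simulated data. Named genes were the 10 members, the list genes past the fold (otherwise the 2 with the most UMIs), the 3 most alike genes of each member, and leading genes of subclusters. Rora-dependent genes other than Shh, markers and Gm15511 were named after their values were seen. The members and lists were chosen with earlier results of these data known. Positions are from GENCODE vM21 (GRCm38), matched by gene identifier, and promoter sequences from RefSeq (GRCm38.p6). Alternatives were another scaling, doublets kept, members allowed in clustering, no integration, other resolutions, other UMI minimums, thinning and a gate on 4 of 8 Purkinje markers. Those added after seeing the data were subcluster weights, leaving out each subcluster, medians over nuclei, each GNP-like cluster alone, and nuclei of at least 5000 UMIs.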

Additional observations from a re-analysis of the deposited data

Results flagged for a closer look

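Some members moved in opposite directions in different classes, with counting intervals on either side of 1. The differences between classes were not tested, since there is 1 library a group. The Foxp2 ratio was 2.23 in GN-like and 0.670 in glutamatergic CN-like nuclei. The control interval of GN-like nuclei overlapped that of microglia-like nuclei, the lowest class. The Rora ratio was 0.495 in GNP-like and 0.607 in Purkinje cell-like nuclei and 1.07 (1.01 to 1.13) in Bergmann glia-like nuclei. Over the processing alternatives the GNP-like ratio ran from 0.437 to 0.958. The Ebf1 ratio was 2.98 in GNP-like and 0.694 in GABAergic interneuron-like nuclei. The glutamatergic CN-like, Bergmann glia-like and GABAergic interneuron-like ratios given here each lay within 1.5-fold.

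Plcb4 was also high in nuclei that no comparison of classes used. In an unnamed cluster of 54 control nuclei and 98 nuclei labelled cKO, led by Zfhx3 and Dchs2, it stood at 2441 and 2956 CPM, above every named class. Ebf2 was at 6.17 and 6.61 CPM there, on 3 and 5 UMIs.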

How the results depend on the processing

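The 4 summary results gave 47 values under the alternatives, and 43 of them kept their direction and size. Over all kept nuclei, thinning each nucleus to 1000 UMIs gave 2 members past 1.5-fold rather than 1, and the cause was not tested. The count of 1 in Purkinje cell-like nuclei became 3 with medians over nuclei (Rora, Ebf2 and Plcb4). It became 2 with subclusters weighted as in control or without subcluster 3, where Plcb3 passed on few UMIs. Shares of all genes past the fold are not given here for these alternatives. The count of 7 highest in Purkinje cell-like nuclei did not move under the alternatives run for it. The Rora ratio in Purkinje cell-like nuclei ran from 0.534 to 0.654 over its alternatives, Ebf1 in GNP-like nuclei from 2.78 to 2.98, and Foxp2 in GN-like nuclei from 1.55 to 2.80. Of 306 ratios of single members, 267 stayed within counting error, 38 moved and 1 reversed. With nuclei thinned to 1000 UMIs, the Plcb3 ratio in GNP-like nuclei became 1.09, on few UMIs. No paired analysis was possible because each group is 1 library, and for the same reason no replicate could be left out. Depth limits Plcb3 in every class, and Bcl11a and Ebf2 in glial classes. Subcluster levels rest on as few as 11 nuclei, and without integration the Rora span over subclusters of the library labelled cKO was 2.76-fold rather than 6.54-fold. Likewise the Plcb4 span in control was 145-fold rather than 27.3-fold without integration, and at a subclustering resolution of 0.8 the Ebf2 span in control was 42.1-fold rather than 23.6-fold. The cause of these shifts was not tested.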
